A study of Mus musculus with 6 samples.

Results

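The interferon regulatory factors (IRFs) other than *Irf4* were followed in activated splenic B cells with and without the aryl hydrocarbon receptor (AhR). The members are the 7 genes *Irf1*, *Irf2*, *Irf3*, *Irf5*, *Irf7*, *Irf8* and *Irf9*, found by symbol among the 23420 rows of the raw count table. All 7 passed the minimum of 10 counts over the 6 libraries. B cells were isolated from the spleens of mice over 8 weeks old. The labels give C57Bl/6J as the background of both genotypes, and the study's methods name the Ahr-/- line as B6.129-Ahr tm1Bra/J, which lacks functional *Ahr* in all cells and whose name records a 129 origin. Differences of background that came with the allele and loss of AhR cannot be told apart. Both genotypes were cultured alike for 8 h with 10 μg/ml anti-IgM, which engages the B-cell receptor, and 20 ng/ml IL-4, and the AhR ligand FICZ was added at 250 nM for the last 4 h. There were 3 libraries per genotype and neither unstimulated nor FICZ-free cultures, so the comparison is between genotypes under 1 stimulus. By the study's description of this experiment, the libraries of each genotype came from 3 mice.

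IRFs share an N-terminal DNA-binding domain with a row of conserved tryptophans and bind sequences built on the core AANNGAAA. Interferon receptors signal through JAK kinases to STAT proteins, which join IRF9 to form ISGF3, the complex that turns on interferon-stimulated genes, *Irf7* among them. IRF3, IRF5 and IRF7 wait in the cytoplasm until Toll-like receptors or nucleic acid sensors lead to their phosphorylation. IRF1 is induced by interferon-γ and drives antigen-presentation genes, and IRF2 competes with it for the same sites. IRF8 is made constitutively in B cells and dendritic cells, where it works with PU.1 and other partners.

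The libraries held between 22095096 and 53648787 counts, and a floor of 3 counts came to 0.0559 to 0.136 CPM (counts relative to library size), a limit for counting error alone. *Cyp1a1*, the prototypical AhR target, had 4973, 5437 and 5327 normalized counts in Ahr+/+ cultures and 6.87, 2.84 and 6.38 in the Ahr-/- libraries. *Ahr* itself was still counted in Ahr-/- libraries, at 9174 ± 472 normalized counts against 13175 ± 682 (SD, n = 3 libraries per genotype). Its counts are summed over the gene and do not test the deleted part. The defining B-cell marker *Cd79a* was high in every library, at no less than 9565 normalized counts. Normalized counts here are raw counts divided by a TMM-adjusted library size, which was set to average 1 over the 6 libraries.

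None of the 7 genes lies on chromosome 12, which carries *Ahr*. The promoter sequences below are shown because *Irf5* and *Irf8* were the members that passed the test of genotype, and *Irf1* and *Irf2* hold matches near their starts. They come from RefSeq (GRCm38.p6), which had windows from 250 bases before to 50 bases after the annotated starts of all 7 genes, 10 windows in all, since *Irf1*, *Irf8* and *Irf9* had 2 each. Capitals mark matches to the letters TTCNNNGAA (a GAS, the element bound by STAT dimers) or, for *Irf2*, 1 match to AANNGAAA.
Irf8, 250 bases upstream of the start at chr8:120736108-120736357, forward strand: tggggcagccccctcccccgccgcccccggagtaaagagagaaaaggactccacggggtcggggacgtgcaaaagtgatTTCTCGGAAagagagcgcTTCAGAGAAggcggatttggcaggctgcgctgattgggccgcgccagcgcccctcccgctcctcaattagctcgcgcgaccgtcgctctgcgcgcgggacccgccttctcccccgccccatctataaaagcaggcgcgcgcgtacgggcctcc
Irf5, 250 bases upstream of the start at chr6:29526375-29526624, forward strand: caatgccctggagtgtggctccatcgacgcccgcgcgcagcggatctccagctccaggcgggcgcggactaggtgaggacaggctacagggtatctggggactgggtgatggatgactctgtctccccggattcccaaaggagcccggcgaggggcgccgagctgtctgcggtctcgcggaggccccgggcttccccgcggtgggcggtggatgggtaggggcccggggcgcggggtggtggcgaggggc
Irf1, chr11:53769914-53769943, forward strand: acagcctgatTTCCCCGAAatgatgaggcc
Irf2, chr8:46739495-46739524, forward strand: tggggAAGTGAAAatgaaattgacttttcc

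The *Irf8* window held 2 GAS matches, which began 171 and 153 bases before the start, and the *Irf1* window held 1, which began 90 bases before it. The *Irf2* window held 1 GAS match and 2 matches to the IRF core that overlap each other by 2 bases. Over all 32851 promoter windows of 300 bases, 8.30% held a GAS match and 23.9% an IRF core, with both strands searched. The core of the dioxin response element bound by AhR, GCGTG, occurred in windows of *Irf1*, *Irf3* and *Irf8* and in 32.4% of all windows. The single match in *Irf8* lay 33 bases after the start. The windows of *Irf5*, *Irf7* and *Irf9* held none of these letters, which says nothing about sites elsewhere. A match is a description of the sequence and no measure of binding.

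Of the 7 members, *Irf5* and *Irf8* were higher in Ahr-/- B cells, none was lower, and 5 did not pass the test. The test was edgeR's quasi-likelihood test over 13682 genes with an adjusted p-value under 0.05. Over all tested genes it called 17.9%, with 9.79% higher and 8.13% lower in Ahr-/- cells. The median log2 fold change of the members was −0.01 and that of all tested genes 0.00214. For the same 2 members the libraries did not overlap between genotypes, as in 33.5% of all tested genes when both directions are counted. No member was called lower by DESeq2 either, and 1, *Irf2*, was lower at an unadjusted p-value under 0.05.

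**Figure D1:**
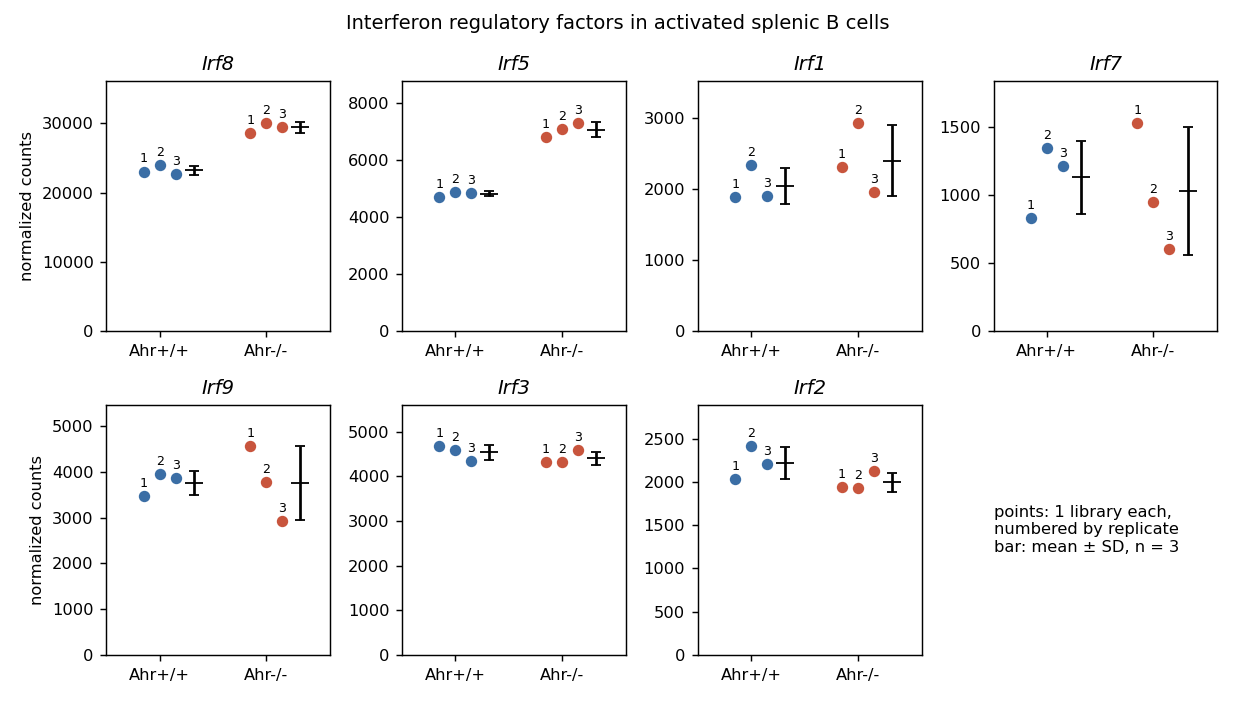
Normalized counts of each factor (vertical axis, linear from 0) in the 3 Ahr+/+ and 3 Ahr-/- libraries, with 1 point per library, its replicate number above it, and a bar for the mean ± SD. All Ahr-/- libraries lie above all Ahr+/+ libraries for *Irf8* and *Irf5*, and *Irf7* and *Irf9* spread widely within Ahr-/- cells.

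*Irf5* encodes a factor activated downstream of Toll-like receptors and MyD88. It had 4709, 4885 and 4834 normalized counts in Ahr+/+ and 6800, 7088 and 7302 in Ahr-/- libraries. The lowest Ahr-/- library was well above the highest Ahr+/+ library, and both genotypes were tight, with a coefficient of variation of 1.88% and 3.56%. The level was 1.47-fold higher in Ahr-/- cells (95% interval 1.39 to 1.56), or 0.56 on the log2 scale (SE 0.039; edgeR, adjusted p = 7.7e-07). It ranked 129 by p-value among all tested genes, and the size of its change was above that of 85.2% of them. The two-sided exact permutation test gave p = 0.1, the smallest that 3 libraries against 3 allow.

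*Irf5* lies on chromosome 6 of GRCm38 from 29526625 to 29541871. In the GENCODE M21 annotation 14.1% of its exon bases, 411 bases, are shared with *Tnpo3* on the opposite strand. The libraries were stranded, but the strand setting of the counting is not given in the sources used here. *Tnpo3*, a nuclear import receptor, had 8163, 8030 and 8142 normalized counts in Ahr+/+ and 7550, 7795 and 7757 in Ahr-/- libraries, so it lay below in every Ahr-/- library (adjusted p = 0.17 from edgeR).

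*Irf8* was the most abundant member, and its gene lies on chromosome 8 from 120736358 to 120756694. Its values were 23033, 23924 and 22613 normalized counts in Ahr+/+ and 28592, 30068 and 29502 in Ahr-/- libraries. Again the genotypes did not overlap and each varied by under 3% (2.89% and 2.53%). The level was 1.27-fold higher in Ahr-/- cells (95% interval 1.201 to 1.34), or 0.34 on the log2 scale (SE 0.036; edgeR, adjusted p = 2.2e-05; two-sided exact permutation test, p = 0.1). The span of *Irf8* lies within that of *Gm20388*, a gene annotated on the same strand that shares no exon base with it.

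The ratio of *Irf8* to *Irf5* normalized counts was 4.89, 4.90 and 4.68 in Ahr+/+ and 4.20, 4.24 and 4.04 in Ahr-/- libraries, so every Ahr-/- library was lower. This restates the folds of the pair, which was chosen after its values were seen, and is given without a test. Across the 6 libraries their log2 CPM had a Pearson r of 0.99, a description that rests on the shift between genotypes both share.

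**Figure D2:**
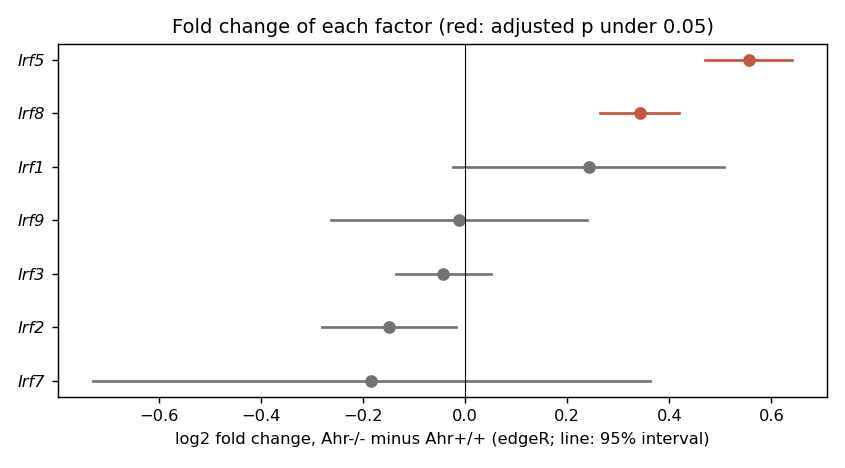
Log2 fold change of each factor, Ahr-/- minus Ahr+/+, from edgeR (horizontal axis), with its 95% interval as a line. The intervals of *Irf5* (log2 0.47 to 0.64) and *Irf8* (log2 0.26 to 0.42) lie above 0, and that of *Irf7* (log2 −0.73 to 0.36) is the widest.

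Dendritic cells and monocytes also make *Irf5*, *Irf7* and *Irf8*, and markers of dendritic cells moved with genotype. Of 11 plasmacytoid dendritic cell markers 7 were higher and 1, *Tcf4*, lower in Ahr-/- libraries, or 72.7% called against 17.9% of all tested genes. *Siglech*, which defines these cells, had 52.3 to 60.6 normalized counts in Ahr+/+ and 236 to 300 in Ahr-/- libraries. The summed level of the list was 11293 to 12334 in Ahr+/+ and 10146 to 10888 in Ahr-/- libraries. *Tcf4*, which B cells also use, made up 7209 to 7869 and 4419 to 4824 of these sums. Of 8 conventional dendritic cell markers 4 were higher and 1, *Zbtb46*, lower, or 62.5% called. Their summed level was 820 to 937 and 882 to 1073, and *Zbtb46* made up 536 to 580 and 392 to 437 of these sums. *Xcr1* and *Flt3* were not called, and no marker of either list was at 0 in all libraries. Of 8 monocyte and macrophage markers *Cd14* was higher and *Emr1* lower, or 25% called, with a summed level of 806 to 1111 and 274 to 799. The call of *Cd14* was lost without Ahr+/+ replicate 1 or 3 or Ahr-/- replicate 1 or 2 (adjusted p from 0.054 to 0.11 from edgeR). Without *Emr1* the sum was 152 to 449 in Ahr+/+ and 238 to 736 in Ahr-/- libraries, which overlap, and the median log2 fold change of the 8 markers was 0.66. The part of such cells in the levels of *Irf5* and *Irf8* was not tested. In RNA from whole cultures, more cells of a type and more RNA per cell cannot be told apart. Of 7 B-cell markers 4 were higher and 1, *Ebf1*, lower, or 71.4% called, with summed levels of 72306 to 76094 and 84850 to 88853. Of the markers of other cells, 2 of 8 for T cells were lower (25% called) and none of 5 for neutrophils was called. For NK cells 2 of 5 were higher (40% called). These were *Ncr1* and *Klrb1c*, whose calls were both lost without Ahr+/+ replicate 1 or 3 or Ahr-/- replicate 1 or 2. Of 5 for plasma cells 1 was higher and 2 were lower (60% called).

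*Irf1* encodes the activator of antigen-presentation genes and lies on chromosome 11 from 53770014 to 53778374. Its values were 1887, 2337 and 1909 normalized counts in Ahr+/+ and 2317, 2940 and 1961 in Ahr-/- libraries. The genotypes overlapped, since Ahr-/- replicates 1 and 3 fell below Ahr+/+ replicate 2. The level was 1.18-fold that of Ahr+/+ cells, with a 95% interval of 0.98 to 1.42 (adjusted p = 0.21 from edgeR). Without Ahr-/- replicate 3 the log2 fold change went from 0.24 to 0.38 and the call was made (adjusted p = 0.014 from edgeR), and without Ahr-/- replicate 2 it was 0.058 (adjusted p = 0.78).

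*Irf2*, which competes with IRF1 for its sites, lies on chromosome 8 from 46739732 to 46847458. Its values were 2035, 2410 and 2208 normalized counts in Ahr+/+ and 1936, 1931 and 2124 in Ahr-/- libraries. Only Ahr-/- replicate 3 lay within the Ahr+/+ range. The level was 0.90-fold, with an unadjusted 95% interval of 0.82 to 0.99 (adjusted p = 0.12 from edgeR). The log2 fold change of −0.15 became −0.21 without Ahr+/+ replicate 1 (adjusted p = 0.029 from edgeR) and −0.20 without Ahr-/- replicate 3 (adjusted p = 0.041), which both make the call.

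*Irf3*, the constitutive factor that answers cytosolic nucleic acid sensing, was the member with the narrowest interval among those not called. It had 4669, 4593 and 4342 normalized counts in Ahr+/+ and 4310, 4317 and 4579 in Ahr-/- libraries, and the genotypes overlapped. The level was 0.97-fold, with a 95% interval of 0.91 to 1.04 (adjusted p = 0.56 from edgeR). *Irf3* lies on chromosome 7 from 44997648 to 45002848.

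*Irf7*, and *Irf9* within Ahr-/- cells, had the widest spread between libraries of the 7 members, and *Irf1* came next to *Irf9* with a coefficient of variation of 12.4% in Ahr+/+ and 20.6% in Ahr-/- cells. *Irf7*, the interferon-induced amplifier of type I interferon genes, lies on chromosome 7 from 141262706 to 141266481. Its values were 829, 1342 and 1213 normalized counts in Ahr+/+ and 1529, 950 and 604 in Ahr-/- libraries. The Ahr-/- libraries held both the highest and the lowest value, and the coefficient of variation was 23.7% in Ahr+/+ and 45.5% in Ahr-/- cells. For tested genes with over 1000 normalized counts in Ahr+/+ cells its median was 3.24% and 3.18%. The level was 0.88-fold in Ahr-/- cells with a 95% interval of 0.60 to 1.28 (adjusted p = 0.69 from edgeR), and changes within that interval are not excluded. Without Ahr-/- replicate 3 the log2 fold change turned from −0.18 to 0.087 (adjusted p = 0.81 from edgeR), and without Ahr-/- replicate 1 it was −0.52 (adjusted p = 0.097).

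*Irf9*, the DNA-binding subunit of ISGF3, lies on chromosome 14 from 55603571 to 55610030. Its values were 3463, 3949 and 3863 normalized counts in Ahr+/+ and 4553, 3767 and 2934 in Ahr-/- libraries, again with both extremes in Ahr-/- cells. The coefficient of variation was 6.91% and 21.6%. The level was 0.99-fold with a 95% interval of 0.83 to 1.18 (adjusted p = 0.96 from edgeR). Its log2 fold change of −0.01 was 0.13 without Ahr-/- replicate 3 and −0.16 without Ahr-/- replicate 1, and it was positive when scaled by total count alone (0.014), so it has no stable direction.

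*Irf7* and *Irf9* varied between libraries with the genes that ISGF3 and IRF7 turn on. Type I interferon response genes, a list of 24 that includes *Isg15*, *Ifit1*, *Mx1*, *Oas2* and *Usp18*, were all tested. None was called in either direction by edgeR or DESeq2, against 17.9% of all tested genes called by edgeR. None had an unadjusted p-value under 0.05, and their median log2 fold change was −0.06. The standard errors ran from 0.11 for *Ifi35* to 0.48 for *Ifit3* on the log2 scale, so changes of that size are not excluded. All 24 were highest in replicate 1 and lowest in replicate 3 among the Ahr-/- libraries, and lowest in replicate 1 among the Ahr+/+ libraries. *Isg15*, a ubiquitin-like protein, had 319.6, 477 and 469 normalized counts in Ahr+/+ and 644, 436 and 216 in Ahr-/- libraries. Ahr-/- replicate 1 was above Ahr-/- replicate 3 by 1.5-fold to 7.09-fold over the 24 genes, with a median of 2.58-fold, against 2.53-fold for *Irf7* and 1.55-fold for *Irf9*. Without Ahr-/- replicate 1 edgeR called 2 genes of the list lower, *Oas3* (log2 fold change −0.77) and *Trim30a* (−0.41). Without Ahr-/- replicate 3 it called 1 higher, *Oasl2* (0.62).

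The mean log2 CPM of the 24 genes was 2.74, 3.42 and 3.36 in Ahr+/+ and 3.76, 3.13 and 2.36 in Ahr-/- libraries. The relation of each of the 7 members to this mean was computed after the values were seen. Its p-values therefore describe these libraries and are no independent test. *Irf7*, itself an interferon-stimulated gene, had a Pearson r of 0.99 with the mean (exact permutation p = 0.0014, the smallest that 6 libraries allow, 0.0049 after Benjamini-Hochberg adjustment). Its Spearman rho was 1 (exact permutation p = 0.0028, adjusted 0.0097). *Irf9* had a Pearson r of 0.98 and a Spearman rho of 1, with the same exact permutation p-values. Without the 2 libraries farthest from the median, Ahr-/- replicates 1 and 3, r was 0.96 for *Irf7* and 0.99 for *Irf9*. Within genotypes, as deviations from the genotype means, r was 0.996 for *Irf7* and 0.983 for *Irf9* (two-sided exact permutation within both genotypes, p = 0.028 for each, the smallest that 36 arrangements allow, and 0.097 after Benjamini-Hochberg adjustment over the 7 members). The order of the libraries by *Irf7* and by *Irf9* was that of the mean of the response genes in both genotypes. It was not that of every gene, as *Trim30a* had 7819 normalized counts in Ahr+/+ replicate 2 and 8148 in replicate 3. The other 5 members had r between −0.62 and 0.38, with adjusted exact permutation p-values from 0.51 to 0.98. *Irf5* and *Irf8* had r of −0.17 and −0.14. Within genotypes r of these members ran from −0.75 for *Irf3* to 0.50 for *Irf1*, with *Irf5* at −0.56 and *Irf8* at −0.24. Their adjusted exact permutation p-values there were 0.45 to 0.83.

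**Figure D3:**
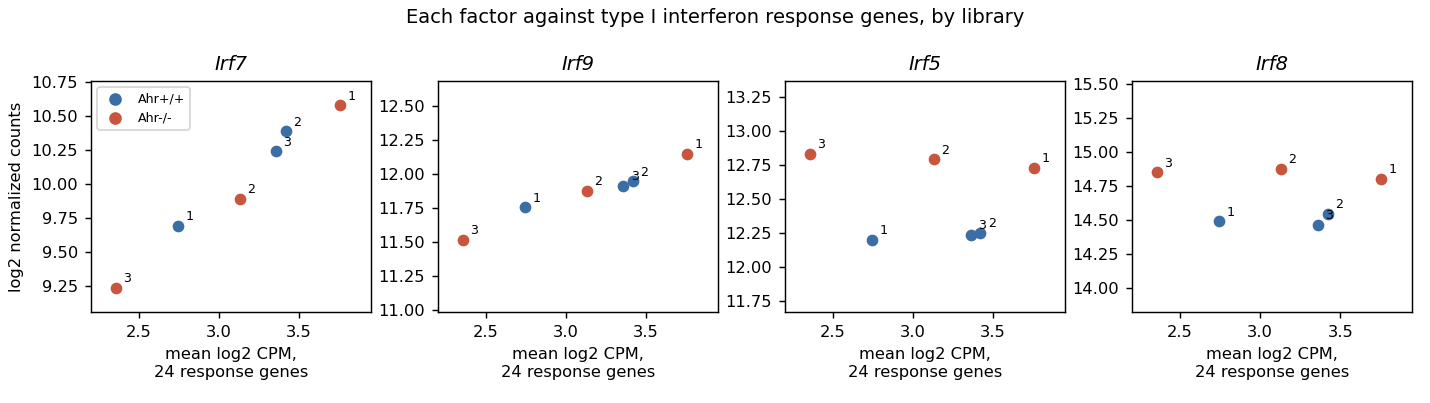
Log2 normalized counts of *Irf7*, *Irf9*, *Irf5* and *Irf8* (vertical axes, each spanning the same range of log2 units) against the mean log2 CPM of 24 type I interferon response genes, with 1 point per library and its replicate number. *Irf7* and *Irf9* rise along the axis from 2.36 to 3.76 in libraries of both genotypes, and *Irf5* and *Irf8* separate by genotype instead.

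Beside that ratio, which is not corrected for length and was read only between genotypes, levels of different members were compared per kilobase, as normalized counts divided by the length of the exons in GENCODE M21. In Ahr+/+ cells *Irf8* stood at 3287 ± 94.9 per kilobase, *Irf5* at 1655 ± 31.1, *Irf3* at 1317 ± 49.8, *Irf9* at 698 ± 48.2, *Irf1* at 514 ± 63.8, *Irf2* at 299.8 ± 25.4 and *Irf7* at 299 ± 70.8 (SD, n = 3 libraries). Neighbours in that order did not overlap except *Irf2* and *Irf7*. In Ahr-/- cells *Irf8* stood at 4165 ± 106 and *Irf5* at 2431 ± 86.7 per kilobase, and *Irf3* followed at 1279 ± 44.6. The order of the first 5 was the same, but there *Irf9* at 697 ± 150.3 overlapped *Irf1* at 605 ± 125, and *Irf7* at 272 ± 124 overlapped *Irf2* at 270.0 ± 14.8. Of the summed level of the 7 members per kilobase, *Irf5* made up 20.5% ± 0.480 in Ahr+/+ and 25.03% ± 1.25 in Ahr-/- cells, and *Irf3* 16.3% ± 0.809 and 13.2% ± 0.718 (SD, n = 3 libraries). The shares are parts of the same sum, so that of *Irf3* can fall without a fall in its own level, which was 0.97-fold and not called. Levels and shares depend on the annotated exon lengths, from 2905 bases for *Irf5* to 7396 for *Irf2*.

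The genes around the factors were taken by role from lists, which describe the pathway and do not test it. Of the interferon genes, 5 were looked up. *Ifna1* had no count, *Ifnb1*, *Ifna2* and *Ifna4* had 1 count each over the 6 libraries, and only *Ifng* was tested, at 28.1 to 48.3 normalized counts, and was not called (adjusted p = 0.34 from edgeR, and not by DESeq2).

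Of 21 tested sensors, adaptors and kinases upstream of the factors, 5 were higher and 1 was lower in Ahr-/- cells. *Tmem173*, which encodes the cytosolic DNA adaptor STING, had 571, 563 and 494 normalized counts in Ahr+/+ and 1049, 968 and 954 in Ahr-/- libraries, with no overlap. It was 1.81-fold higher, or 0.86 on the log2 scale (SE 0.067; edgeR, adjusted p = 1.8e-06). *Tlr9*, the endosomal receptor for CpG DNA, rose from 2783, 3274 and 3185 to 4397, 4611 and 4976 (log2 fold change 0.60, adjusted p = 2.1e-05 from edgeR). *Unc93b1*, which carries TLR9 to endosomes, was higher by a log2 fold change of 0.34 (adjusted p = 3.4e-05 from edgeR), and *Ticam1*, the adaptor TRIF, by 0.28 (adjusted p = 0.0025). *Irak2* was the fifth, and *Traf3* was lower at a log2 fold change of −0.12 (adjusted p = 0.046 from edgeR), a call lost when any 1 library but Ahr-/- replicate 3 was left out (adjusted p from 0.067 to 0.16). *Tlr7*, *Myd88*, *Irak4*, *Tbk1* and *Mavs* were not called, nor was *Tlr3* (log2 fold change −1.11, adjusted p = 0.065 from edgeR). Without Ahr-/- replicate 1, *Tlr3* (−1.50), *Tlr7* (−0.39) and *Ddx58* (−0.52) were called lower (adjusted p = 0.018, 0.014 and 0.016 from edgeR). Without Ahr-/- replicate 3, *Ikbke* (0.27) and *Ifih1* (0.55) were called higher. Leaving out 1 library at a time gave 5 to 8 called genes in the list. The calls made up 28.6% of the list, against 17.9% of all tested genes. The list's median log2 fold change was −0.02.

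Among 9 interferon receptor, JAK and STAT genes 3 were higher and 2 lower, or 55.6% called against 17.9% of all tested genes, with a median log2 fold change of 0.02. *Jak2*, the kinase of the interferon-γ receptor, had 12615, 10986 and 11153 normalized counts in Ahr+/+ and 4116, 4267 and 4229 in Ahr-/- libraries. It fell by 1.46 on the log2 scale (standard error 0.052, adjusted p = 1.2e-09 from edgeR), the largest change of the called genes in the pathway lists. *Jak1*, which serves both interferon receptors, fell by 0.40 on the log2 scale (adjusted p = 2.6e-06 from edgeR). The receptor chains *Ifnar1*, *Ifnar2* and *Ifngr2* were higher by log2 fold changes of 0.27, 0.30 and 0.23 (adjusted p = 7.9e-04, 0.0015 and 0.0015 from edgeR). *Stat2*, which encodes a partner of IRF9, was not called (adjusted p = 0.90 from edgeR).

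Of 13 DNA-binding partners and cofactors 2 were higher and 3 lower, or 38.5% called against 17.9% of all tested genes, with a median log2 fold change of −0.03. *Sfpi1* and *Spib*, which encode PU.1 and Spi-B, the ETS partners of IRF8, had log2 fold changes of −0.02 and 0.0077 (adjusted p = 0.85 and 0.95 from edgeR). *Etv6*, another ETS factor, and *Batf*, the AP-1 partner of IRFs, were higher by log2 fold changes of 0.47 and 0.33 (adjusted p = 4.3e-05 and 0.0033 from edgeR). *Ikzf3*, which encodes Aiolos, had 12356, 12431 and 13263 normalized counts in Ahr+/+ and 7577, 8434 and 8873 in Ahr-/- libraries and fell by 0.61 on the log2 scale (adjusted p = 5.1e-06 from edgeR). The corepressor genes *Irf2bp2* and *Irf2bpl* fell by 0.44 and 0.47 (adjusted p = 0.0015 and 1.3e-04 from edgeR), and *Irf2bp1* was not called (adjusted p = 0.59). Without Ahr-/- replicate 3, *Crebbp* (−0.20) and *Ep300* (−0.13) were also called lower (adjusted p = 0.013 and 0.040 from edgeR). Without Ahr+/+ replicate 2, *Tcf3* (0.15) was called higher (adjusted p = 0.043 from edgeR).

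Of 17 antigen-presentation and GTPase genes linked to IRF1, 3 were higher and none was lower, or 17.6% called against 17.9% of all tested genes, so the share was that of the background. The median log2 fold change was 0.08. *Gbp3*, an interferon-induced GTPase, had 60.2, 113 and 101 normalized counts in Ahr+/+ and 163, 185 and 146 in Ahr-/- libraries (log2 fold change 0.86, adjusted p = 0.0085 from edgeR). *Cd274*, which encodes PD-L1, and *Tapbp*, which encodes tapasin, were higher by log2 fold changes of 0.26 and 0.24 (adjusted p = 0.013 and 0.017 from edgeR). Both calls were lost without Ahr+/+ replicate 1. That of *Cd274* was also lost without Ahr-/- replicate 2, and that of *Tapbp* without Ahr+/+ replicate 3 or Ahr-/- replicate 1. Without Ahr-/- replicate 1, *Irgm1* was called lower (log2 fold change −0.38, adjusted p = 0.036 from edgeR). *Psmb9*, *Tap1*, *H2-K1* and *Socs1* were not called. The count depended on single libraries, at 1 gene without Ahr+/+ replicate 1 and 6 without Ahr-/- replicate 3.

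**Figure D4:**
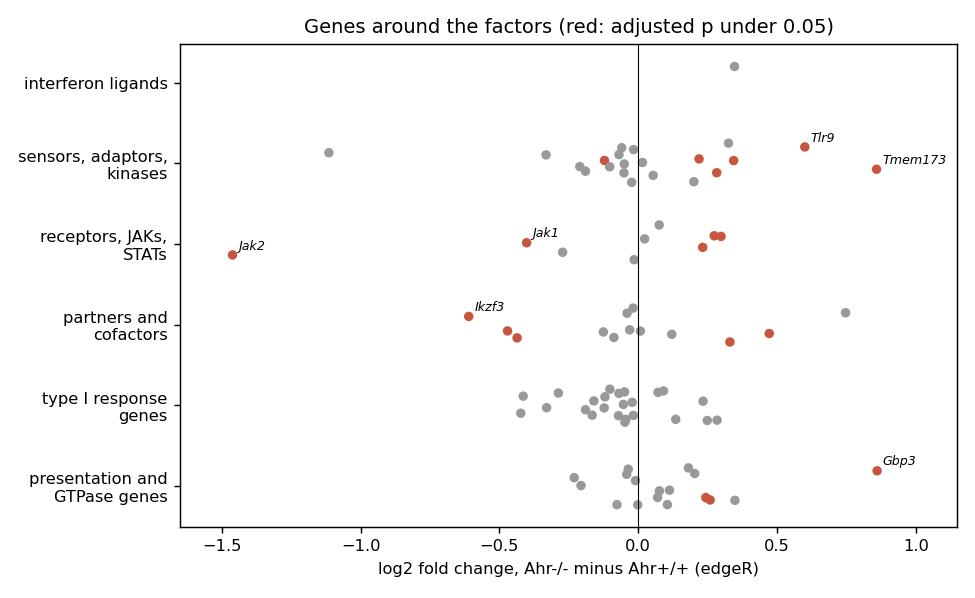
Log2 fold change, Ahr-/- minus Ahr+/+ from edgeR (horizontal axis), of each tested gene in 6 lists around the factors (vertical axis; points are spread vertically only for legibility). Red points passed an adjusted p-value under 0.05. *Jak2* lies farthest left at −1.46, and none of the 24 type I response genes passed.

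By likeness of pattern over the 6 libraries, the genes closest to *Irf5* were *Icam1*, *Emid1* and *Etfdh*, with a Pearson r of log2 CPM of 0.999, 0.999 and 0.998. Those closest to *Irf8* were *Specc1l*, *Cd209a* and *Nckipsd*, at 0.999, 0.998 and 0.998. *Cd209a*, with 6, 8 and 5 raw counts in Ahr+/+ libraries, is among the conventional dendritic cell markers above, of which *Zbtb46* was lower. As for *Irf5* with *Irf8*, such an r rests on a shared shift between genotypes. Of 11832 genes compared, 474 had an r of at least 0.95 with *Irf5* and 429 with *Irf8*, so these names are the top of long lists.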

How the data were processed

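Stranded mRNA libraries (TruSeq kit) were made from 3 Ahr+/+ and 3 Ahr-/- cultures. The counts analysed here are the raw reads per gene that the authors deposited. The submitters' processing notes name TopHat2, HTSeq, DESeq and mm10, without their settings. The authors' scaled counts and their own table of means, fold changes and p-values were not used. Total counts ranged from 22095096 to 53648787.

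Counts were tested in R 4.3.3 with edgeR 4.0.16 (TMM scaling, quasi-likelihood fit, genotype as the only term) over 13682 genes with at least 10 counts in all, and 9738 genes fell below that. Calls required a Benjamini-Hochberg adjusted p-value under 0.05. Standard errors are the absolute log2 fold change divided by the square root of F. Single genes and relations across libraries were also tested by two-sided exact permutation tests, in Python 3.11.15 with scipy 1.17.1. Log2 CPM used a prior count of 2. The procedure was tested on simulated data for this comparison over 13682 genes, of which it recovered 51 of 67 changed by 1.5-fold, 57 of 67 by 2-fold and 63 of 66 by 4-fold, with 8 false calls. No replicate was a duplicate of another: chi-square divided by its degrees of freedom was 3.80 to 8.80 for pairs within a genotype.

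The members and the gene lists were chosen with earlier results of these data known. Named are every member, *Ahr* and *Cyp1a1*, markers, up to 4 called genes per list and direction with the smallest adjusted p, and for the 2 members with the smallest p the 3 genes most like them by Pearson r, among genes averaging 10 or more normalized counts. *Tnpo3*, *Irak2*, *Isg15*, *Ifnb1*, the ratio of *Irf8* to *Irf5* and genes named as not called were chosen after their values were seen. One listed symbol, *Tasl*, had no match in the table. Positions are from GENCODE M21 (GRCm38) and promoters from RefSeq (GRCm38.p6). Alternatives were other scalings, filters and thresholds, DESeq2 1.42.0, the replicate number as a block and leaving out each library. Results for some genes are not reported here.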

Additional observations from a re-analysis of the deposited data

How the results depend on the processing

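*Irf5* and *Irf8* kept their direction and call in all 12 alternatives that gave a value, with log2 fold changes of 0.53 to 0.58 and 0.32 to 0.37. *Irf3* also kept its direction, and stayed uncalled. An adjusted p-value under 0.01 left 1473 called genes, 783 higher and 690 lower, and 1 presentation gene. Leaving out 1 library at a time gave 1664 to 2601 called genes (908 to 1384 higher, 756 to 1217 lower), 2 to 3 members higher and 0 to 1 lower. It gave 0 to 2 type I response genes and 1 to 6 presentation genes. The log2 fold change then ran from 0.058 to 0.38 for *Irf1*, from −0.21 to −0.085 for *Irf2*, from −0.52 to 0.087 for *Irf7* and from −0.16 to 0.13 for *Irf9*. *Irf9* also turned positive with total count alone, to 0.014. The causes were not tested.

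Same-numbered libraries were not paired by the labels, and their deviations from the genotype means correlated at −0.03, 0.12 and −0.04. Not every library correlated best with its own number. With the replicate number as a block *Irf1* was called higher at a log2 fold change of 0.22 (adjusted p = 0.022 from edgeR), and no other member changed its call, with 2304 genes called in all. Of 48 called genes in the lists, *Ahr* and *Cyp1a1* included, all kept their direction in the 12 alternatives tested at an adjusted p-value under 0.05, and 9 lost the call in at least 1 of them (*Traf3*, *Tapbp*, *Cd274*, *Ebf1*, *Ccr9*, *Clec10a*, *Cd14*, *Ncr1* and *Klrb1c*). The stricter threshold is not part of that count.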
